A study of Homo sapiens with 14 samples.

Results

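Semaphorins, their plexin receptors and the neuropilin co-receptors are described here across 4 groups of human MGE-like progenitor cells, which stand in culture for the medial ganglionic eminence (MGE), a ventral part of the embryonic forebrain. The members are all protein-coding genes with a symbol that begins with SEMA3, SEMA4, SEMA5, SEMA6, SEMA7, PLXNA, PLXNB, PLXNC or PLXND, plus NRP1 and NRP2. They number 31 of the 58051 genes in the table: 20 semaphorins, 9 plexins and 2 neuropilins. H9, a human embryonic stem cell line, was the source of all cells, and collection was at day 25. All groups received 2 µM SB431542, an inhibitor of TGF-beta receptors, with 200 nM LDN193189, an inhibitor of BMP receptors, over days 0 to 6. Over days 10 to 17 they received 250 ng/mL SHH, the ventral patterning signal, with 0.3 µM purmorphamine, which activates its pathway. The 14 libraries are 3 of wild type (WT), 5 of a knockout of CTNNB1, which encodes beta-catenin (KO), and 6 of an inducible CTNNB1 overexpression line (OE). Of the latter 3 had no doxycycline (OE without Dox) and 3 had 0.1 µg/mL doxycycline over days 17 to 25 (OE with Dox). Doxycycline was given to no other group, so the drug and the transgene cannot be told apart. The labels give neither the form of CTNNB1 overexpressed, nor how the knockout was made, nor whether replicates are separate differentiations, so p-values measure the spread between these libraries, which may be technical.

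Semaphorins are guidance proteins that steer growing axons and migrating neurons. The class 3 proteins are secreted and mostly signal through a neuropilin, which binds the ligand, together with a class A plexin, which carries the signal into the cell, while SEMA3E can bind plexin D1 without a neuropilin. The semaphorins of classes 4 to 7 are attached to the membrane and bind plexins directly, and beta-catenin is the transcriptional effector of canonical WNT signalling. Interneurons born in the MGE carry neuropilins and respond to class 3 semaphorins on their way past the striatum to the cortex.

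Values are normalized read counts: reads per gene divided by 1 size factor per library. Each library held 5233270 to 5639725 gene reads, recovered from the values, and a 0 allows up to 3 reads, or 2.60 to 2.84 normalized counts, for counting error only. Where a value is given "without Dox" or "with Dox", it is from the OE line. CTNNB1 itself stood at 3814 ± 573 (mean ± SD) in WT and 2383 ± 271 in KO, and 3345 ± 276 without and 27059.8 ± 3820.4 with Dox, so transcript from the gene remained in KO (log2 fold -0.67, SE 0.13, adjusted p = 0.001). The labelled identity was checked on markers. NKX2-1, the defining regulator of the MGE, was at 553 ± 157 in WT and 2774 ± 465 in KO, and 1872 ± 509 without and 494 ± 361 with Dox. Of the 6 MGE markers listed, OLIG2 instead had a lower mean in KO (165 ± 33.2) than in WT (300 ± 78.4). PAX6, a dorsal forebrain and progenitor regulator, was highest in WT, at 2403 ± 204. The 6 dorsal markers listed, mostly PAX6, also summed highest in WT, at 2505 to 2904, against 838 to 1962 with Dox. Within that list the means of NEUROG2, EOMES and TBR1 peaked with Dox (324 ± 351, 181 ± 275 and 151 ± 114), where OE with Dox 1 was highest (729, 499 and 280). Of 10 neuron markers 8 were called higher in KO against WT, and 1 higher and 9 lower with Dox against without, by the test described below. Their summed level ranged from 9367 to 11003 in WT and 17639 to 21818 in KO, and 17247 to 19437 without and 5718 to 6424 with Dox. Of 8 mesenchyme markers 2 were lower in KO and 5 higher with Dox, and they summed to 534 to 1932, 249 to 461, 370.4 to 1809 and 1466 to 6616 in the same order. Of 5 epithelial markers 3 were lower in KO and 4 higher with Dox. The epithelial markers summed to 169 to 265, 86.9 to 116, 99.7 to 208 and 331 to 770 in that order. Of 5 endothelial markers 3 were tested, of which 2, KDR and CLDN5, were lower in KO and higher with Dox, and the 5 summed to 36.9 to 76.9, 5.54 to 17.9, 21.9 to 55.5 and 96.0 to 168 in that order, while the defining markers PECAM1 and CDH5 had means of at most 3.09 in any group. SOX10, which defines neural crest, was at 0 in all libraries. In these bulk samples fewer cells of a type and less RNA per cell cannot be told apart, and the part of cell makeup in the results below was not tested.

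Folds are log2 folds of the normalized count plus 1 from limma, a linear model fitted to the 17102 genes that reached 10 in 3 or more libraries. A gene is called at a Benjamini-Hochberg adjusted p under 0.05 over all of them. Of the 31 members 30 were tested, and SEMA3G was too low. In KO against WT 7 members were higher and 7 lower, which is 46.7% of those tested, beside 13.8% of all genes (6.64% higher and 7.15% lower). With Dox against without Dox 7 were higher and 9 lower, or 53.3%, beside 25.7% of all genes (12.8% and 12.9%). The compared groups did not overlap for 15 of the 30 in KO against WT, beside 18.1% of all genes, and for 18 with Dox against without, beside 40.7%. The median log2 fold over the tested members was 0.14 in KO and -0.09 with Dox, against -0.02 and 0.02 over all genes. Members moved in both directions in each comparison, as the map of all members by library shows.

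**Figure D1:**
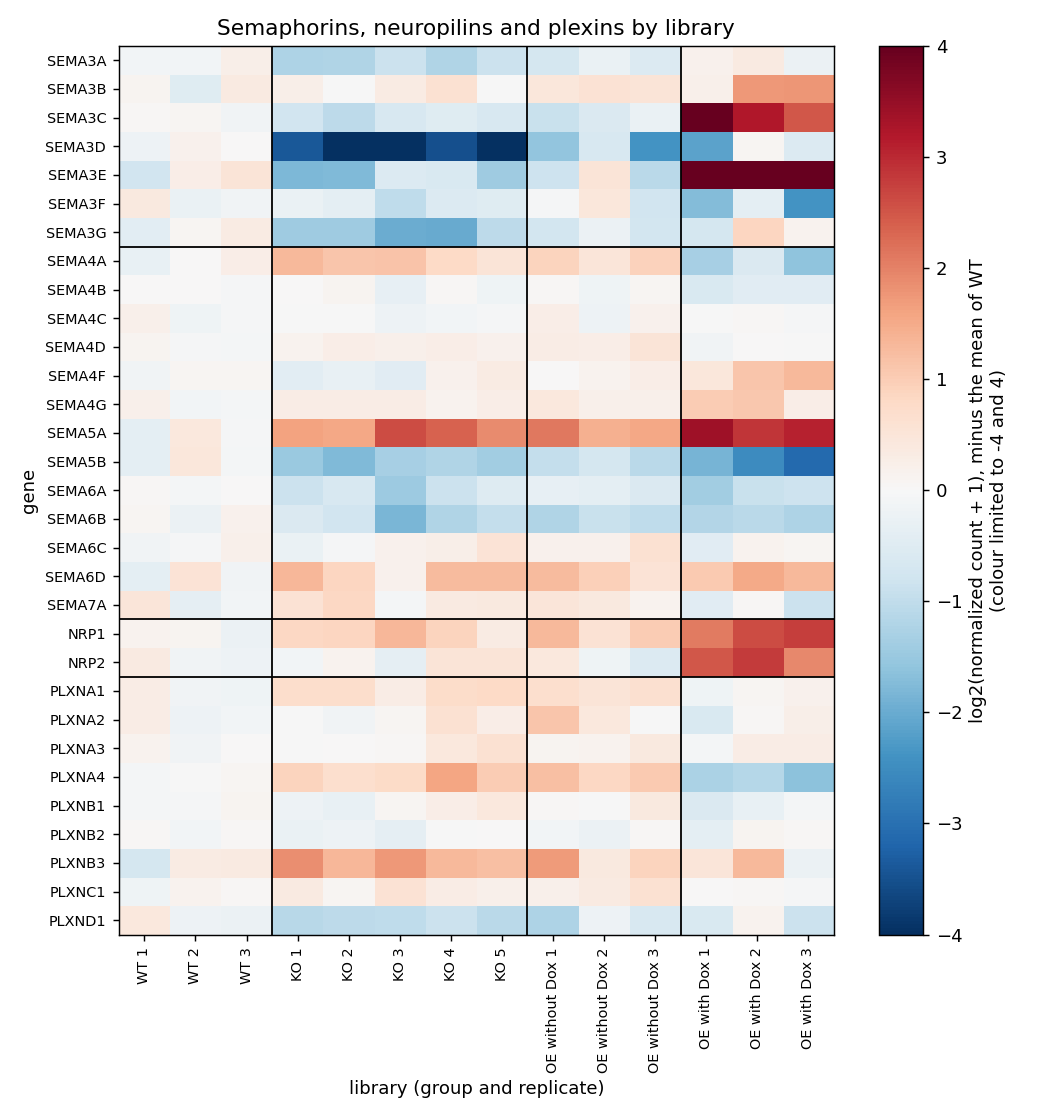
Colour shows log2 of the normalized count plus 1 minus the WT mean, for 31 genes (rows) in 14 libraries (columns), with black lines between groups and gene classes and colour limited to -4 and 4. SEMA3C, SEMA3E, SEMA5A, NRP1 and NRP2 are high in all 3 OE with Dox libraries, SEMA3D is low in all 5 KO libraries, and SEMA5A is above its WT mean in each library of the other 3 groups.

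Levels between genes were compared per kilobase of GENCODE 44 exons. In WT the highest were SEMA6B, at 200.1 ± 28.4 normalized counts per kilobase, PLXNB2, at 187 ± 12.7, PLXNA1, at 143 ± 27.2, and PLXNB1, at 142 ± 10.8, and each overlapped the next in that order. The lowest was SEMA3E, at 1.12 ± 0.505, which overlapped SEMA3G, at 1.36 ± 0.393. In OE with Dox the top places were held by SEMA3C, at 189 ± 94.1, PLXNB2, at 179 ± 32.1, and SEMA3E, at 162 ± 23.4, whose ranges overlapped, so SEMA3E went from rank 31 to rank 3. Summed per kilobase, the 7 class 3 semaphorins stood at 108 ± 6.43 in WT and 56.0 ± 4.09 in KO, and 82.2 ± 21.5 without and 419 ± 103 with Dox. The 2 neuropilins summed to 31.2 ± 4.95, 47.1 ± 5.24, 47.4 ± 11.6 and 172 ± 25.2. By contrast the 9 plexins stood at 584 ± 39.8, 668 ± 76.6, 684 ± 52.5 and 549.7 ± 81.0, with the ranges of WT and OE with Dox overlapping. The class 3 and neuropilin sums of OE with Dox lay above those of every other library.

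Among the ligands, SEMA3E had the largest rise with Dox. This secreted ligand of plexin D1 (ENSG00000170381, hg38 chromosome 7, 83363238 to 83649139, minus strand) stood at 4.73, 10.7 and 13.0 in the 3 WT libraries and at 1.85, 1.89, 5.67, 5.39 and 2.68 in the 5 KO libraries. In OE without Dox it was at 4.57, 13.0 and 3.63, which is 23 reads over 3 libraries, and in OE with Dox at 1358, 1574 and 1179. Every OE with Dox library lay at 1179 or above and every other library at 13.0 or below, and the mean with Dox was 194 times that without Dox (log2 fold 7.58, SE 0.45, adjusted p = 1.1e-09). A pseudocount of 5 in place of 1 lowered this log2 fold to 6.90. SEMA3E was also called lower in KO than in WT (log2 fold -1.23, adjusted p = 0.049), a call on very low counts (32 reads in WT, 19 in KO) whose groups overlap. That call was lost without WT 2 or WT 3 or KO 1 or KO 2 or KO 5 (adjusted p up to 0.24), and under 6 other settings: edgeR (adjusted p = 0.056), a pseudocount of 5 (0.075), a filter of 50 (0.07), upper-quartile scaling (0.052), non-robust variances (0.054) and a fit of both groups alone (0.1).

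SEMA3C, which signals through both neuropilins, rose with Dox as well (ENSG00000075223, chromosome 7, 80742538 to 80922359, minus strand). It stood at 116, 119 and 101 in WT, 65.6, 53.8, 71.8, 79.1 and 70.7 in KO and 59.4, 75.0 and 92.5 without Dox. With Dox the 3 libraries held 1769, 1046 and 635, a wide spread that still lay wholly above all other libraries (log2 fold 3.81, SE 0.27, adjusted p = 1.1e-08). In KO the level was below WT in every library (log2 fold -0.72, adjusted p = 0.058) without passing the test, and it passed when only the WT and KO libraries were fitted (adjusted p = 0.013) or when no filter on low values was used (0.044).

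SEMA3D, a guidance factor of the same class, had the largest fall in KO (ENSG00000153993, chromosome 7, 84995553 to 85187056, minus strand). The WT libraries held 153, 198 and 178 and the KO libraries 15.7, 9.44, 4.72, 14.4 and 5.37. OE without Dox lay between, at 58.5, 111 and 32.6, and OE with Dox held 38.8, 184 and 121, a range that overlaps both WT and OE without Dox. The KO libraries lay below all other libraries (log2 fold -4.15, SE 0.49, adjusted p = 3e-05, against WT; log2 fold -2.61, adjusted p = 0.0084, against OE without Dox). In KO against OE without Dox it was the only member called, 1 of 30 or 3.33%, beside 2.11% of all genes (0.351% higher and 1.75% lower), and that call was lost without OE without Dox 2 (adjusted p = 0.063) and with no filter (0.056). With Dox SEMA3D did not pass the test (log2 fold 0.67, adjusted p = 0.42).

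SEMA3A, the classical repellent that acts through NRP1, moved in opposite directions in the comparisons (ENSG00000075213, chromosome 7, 83955777 to 84492724, minus strand). WT libraries held 188, 189 and 242, KO libraries 86.8, 88.8, 111, 88.0 and 114, OE without Dox 126, 172 and 141 and OE with Dox 232, 264 and 174. KO lay below all other libraries (log2 fold -1.07, SE 0.17, adjusted p = 0.00023), while OE with Dox lay above OE without Dox with no overlap (log2 fold 0.60, adjusted p = 0.026) and overlapped WT. The call with Dox was lost without OE without Dox 1 or OE without Dox 3 or OE with Dox 1 or OE with Dox 2 (adjusted p up to 0.13) and with no filter on low values (0.053).

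The 3 other class 3 genes lie on chromosome 3. SEMA3F, a ligand of NRP2, held 240.5, 153 and 165 in WT and 151, 138, 88.8, 126 and 131 in KO, and 176, 249.8 and 108 without and 54.5, 138 and 34.1 with Dox, where the groups with and without Dox overlap (log2 fold -1.39, adjusted p = 0.018). KO lay just below WT and did not pass the test (log2 fold -0.54, adjusted p = 0.4). The fall with Dox was lost without OE without Dox 1 or OE without Dox 2 or OE with Dox 1 or OE with Dox 3 (adjusted p up to 0.088), in a fit of both groups alone (0.093) and with no filter (0.07). An antisense gene, SEMA3F-AS1, overlaps SEMA3F, and the strand setting of the counting is not given in the sources used here. SEMA3B was at 29.7 ± 8.45 in WT and 34.6 ± 6.83 in KO, and 41.8 ± 1.63 without and 33.2, 97.6 and 100.5 with Dox, and passed neither main test. SEMA3G had 23 reads over the WT libraries, 9 over 5 KO libraries, 14 without Dox and 26 with Dox, and was not tested.

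**Figure D2:**
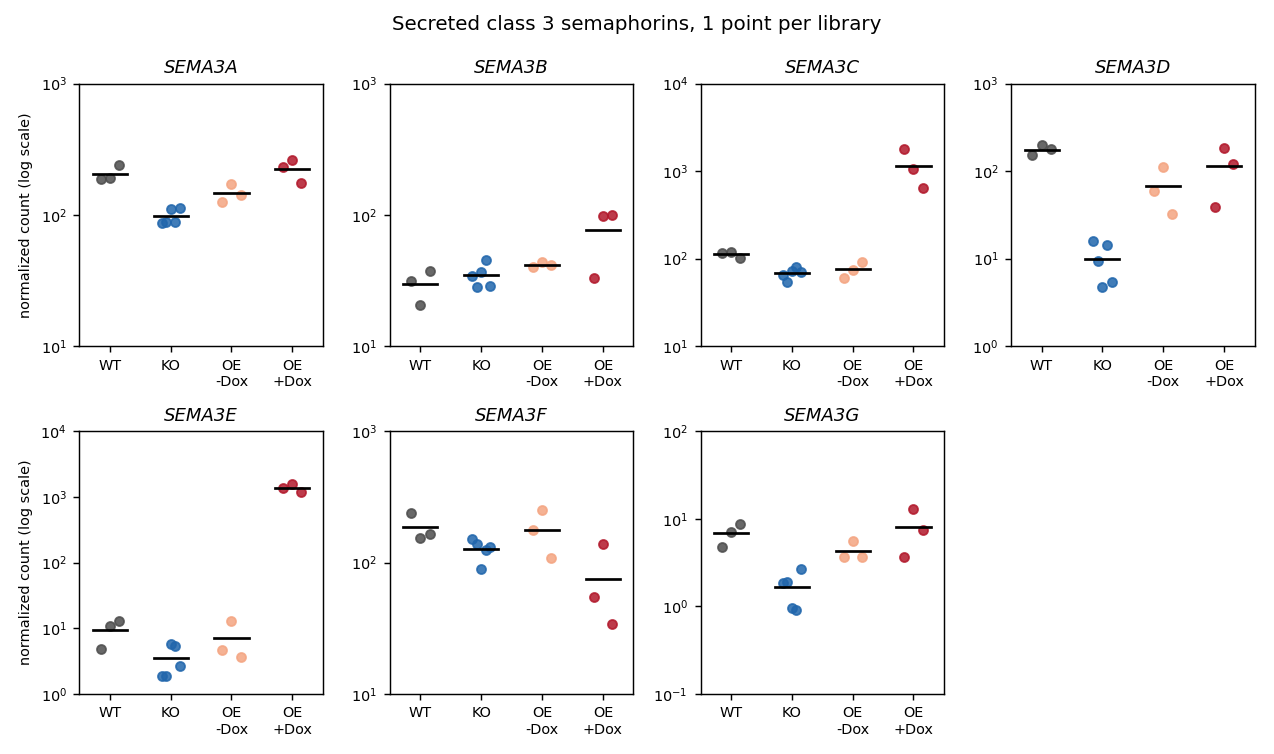
Normalized counts of the 7 class 3 semaphorins on a log scale, with 1 point per library and a line at the group mean, where OE -Dox and OE +Dox are the overexpression line without and with doxycycline. The OE with Dox points of SEMA3E and SEMA3C lie above all other libraries, and the KO points of SEMA3D and SEMA3A lie below all other libraries.

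Of the 31 members 27 have a promoter in the RefSeq table (GRCh38.p14), all but NRP1, SEMA3A, SEMA6A and SEMA6B, with 48 start sites between them. The 250 bases before each start were searched on both strands for CTTTGAA and CTTTGAT, which are core sites of the TCF and LEF factors that beta-catenin binds. A match was found in 4 of the 48 windows, 8.33%, against 5.94% of 35116 windows of all genes. The windows of members had a median GC content of 64.8% against 58% for all. Shown first are windows of SEMA3E, SEMA3C and SEMA3D, the members with the largest changes, and then 3 of the 4 windows with a match, all from the gene's own strand, 5′ to 3′, in lower case with matches in capitals.
SEMA3E chr7:83649140-83649389: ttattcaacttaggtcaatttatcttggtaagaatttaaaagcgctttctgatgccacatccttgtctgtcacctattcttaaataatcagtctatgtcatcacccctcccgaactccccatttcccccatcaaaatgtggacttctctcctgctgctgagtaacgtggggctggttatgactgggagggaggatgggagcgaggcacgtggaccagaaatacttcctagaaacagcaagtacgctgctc
SEMA3C chr7:80922390-80922639: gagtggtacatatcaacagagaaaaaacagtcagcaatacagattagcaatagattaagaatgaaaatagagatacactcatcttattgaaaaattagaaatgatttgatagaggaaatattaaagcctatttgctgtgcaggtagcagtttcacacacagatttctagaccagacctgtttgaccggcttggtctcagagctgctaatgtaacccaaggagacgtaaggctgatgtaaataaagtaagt
SEMA3D chr7:85187057-85187306: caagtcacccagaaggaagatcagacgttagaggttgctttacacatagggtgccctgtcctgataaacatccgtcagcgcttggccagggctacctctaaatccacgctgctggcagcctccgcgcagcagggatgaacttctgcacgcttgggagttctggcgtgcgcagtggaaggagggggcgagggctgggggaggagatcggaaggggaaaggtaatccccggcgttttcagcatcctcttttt
PLXNA1 chr3:126982865-126983114: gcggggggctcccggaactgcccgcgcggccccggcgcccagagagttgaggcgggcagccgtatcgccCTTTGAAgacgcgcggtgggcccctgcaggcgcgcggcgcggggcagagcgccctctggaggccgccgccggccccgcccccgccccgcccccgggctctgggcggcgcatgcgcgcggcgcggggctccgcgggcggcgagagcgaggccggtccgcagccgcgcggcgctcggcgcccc
SEMA3F chr3:50158769-50159018: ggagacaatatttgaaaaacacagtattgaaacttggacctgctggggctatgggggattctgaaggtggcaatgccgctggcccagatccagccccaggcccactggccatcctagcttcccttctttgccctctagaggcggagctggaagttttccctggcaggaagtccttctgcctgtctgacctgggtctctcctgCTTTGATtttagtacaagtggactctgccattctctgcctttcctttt
SEMA6D chr15:47183839-47184088: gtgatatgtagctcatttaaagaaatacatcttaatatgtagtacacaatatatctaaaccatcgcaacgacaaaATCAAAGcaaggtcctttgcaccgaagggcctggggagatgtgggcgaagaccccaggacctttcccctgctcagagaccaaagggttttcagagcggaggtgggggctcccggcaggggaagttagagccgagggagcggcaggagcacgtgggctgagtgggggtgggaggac
The SEMA3E, SEMA3C and SEMA3D windows (minus strand) hold no match, which says only that these letters are not in them. The PLXNA1, SEMA3F and SEMA6D windows (plus strand) hold 1 match each, which begins 181, 48 and 175 bases before the start; the SEMA3F start is 1 of 3 in the table and lies 3974 bases inside the GENCODE gene, and the PLXNA1 start 422 bases inside. The match is CTTTGAA in PLXNA1 and CTTTGAT in the other 2, on the opposite strand in SEMA6D. SEMA3E, SEMA3C and SEMA6D have further RefSeq starts, whose windows are not shown and hold no match. The SEMA3C window shown has 36.4% GC, and the window of its other start has 77.6%. The further SEMA6D starts lie 533404 and 534388 bases from the GENCODE start. The fourth window with a match belongs to SEMA4G. Of these 4 genes PLXNA1 and SEMA3F were lower with Dox and SEMA6D and SEMA4G did not pass that test.

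Both neuropilins rose with Dox. NRP1, the co-receptor of SEMA3A and of VEGFA (ENSG00000099250, chromosome 10, 33177492 to 33336262, minus strand), held 213, 212 and 165 in WT and 350.1, 352, 487, 367 and 247 in KO, and 479, 293 and 396 without and 823, 1184 and 1324 with Dox. All OE with Dox libraries lay above the rest (log2 fold 1.51, SE 0.23, adjusted p = 7.1e-05), and all KO libraries lay above WT (log2 fold 0.85, adjusted p = 0.0081), although the second call was lost without WT 3 (adjusted p up to 0.062). NRP2, the co-receptor of SEMA3F (ENSG00000118257, chromosome 2, 205681990 to 205798133, plus strand), held 247, 176 and 168 in WT and 178, 215, 152, 278 and 276 in KO, and 259.7, 173 and 132 without and 1086, 1342 and 731 with Dox. Its rise with Dox left no overlap (log2 fold 2.49, SE 0.28, adjusted p = 3.9e-06), whereas WT, KO and OE without Dox overlapped each other. The mesenchyme markers given above also rose with Dox in 5 of 8 cases, though their summed levels with and without Dox overlapped. The epithelial markers rose with Dox in 4 of 5 cases, and their summed levels did not overlap (99.7 to 208 without, 331 to 770 with Dox). The part of either list in the neuropilin and SEMA3C levels was not tested.

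Of the 9 plexins KO had 3 called higher than WT and 1 lower, while with Dox 2 were called lower and 0 higher than without. The 2 of 9 called with Dox, 22.2%, are no more than the 25.7% of all genes, and the 4 of 9 in KO are 44.4% beside 13.8%. PLXNA4, a class A plexin of neurons that serves class 3 and class 6 ligands (ENSG00000221866, chromosome 7, 132123340 to 132648688, minus strand), had the largest change. It held 90.9, 96.5 and 103 in WT and 178, 155, 166, 290.2 and 197 in KO, and 222, 174 and 200.3 without and 39.7, 43.7 and 30.4 with Dox. KO lay wholly above WT (log2 fold 0.98, adjusted p = 0.0015), and OE with Dox lay below every other library (log2 fold -2.37, SE 0.21, adjusted p = 1.7e-07). The summed neuron markers given above have the same order, lowest in OE with Dox, then WT, and highest in KO and OE without Dox, and their part in the PLXNA4 level was not tested.

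PLXNA1, the class A plexin with the highest WT level per kilobase, moved in the same directions by less (ENSG00000114554, chromosome 3, 126982693 to 127037389, plus strand). It held 1954, 1437 and 1414 in WT and 2597, 2559.9, 1963, 2616 and 2726 in KO, and 2545, 2253 and 2456 without and 1392, 1676 and 1791 with Dox. KO lay above WT (log2 fold 0.64, adjusted p = 0.0027) and OE with Dox below OE without Dox (log2 fold -0.58, adjusted p = 0.0071), both with no overlap. Without KO 3, the lowest KO library at 1963, the first log2 fold was 0.73.

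Among the other plexins, PLXND1, the receptor of SEMA3E, fell in KO. Its WT libraries held 238, 153 and 148, its KO libraries 80.4, 84.0, 86.0, 95.2 and 82.3, OE without Dox 74.1, 153 and 112 and OE with Dox 114, 195 and 95.9. KO lay below WT (log2 fold -1.03, SE 0.24, adjusted p = 0.0063), and with Dox, where its ligand SEMA3E rose, PLXND1 did not pass the test and the groups overlapped (log2 fold 0.25, adjusted p = 0.55). The endothelial markers KDR and CLDN5 were also lower in KO than in WT (20.8 ± 6.92 to 1.84 ± 0.0481, and 34.9 ± 18.0 to 4.95 ± 3.26). Of the same list TEK was at 5.31 ± 3.82 in WT and 5.19 ± 2.81 in KO, and PECAM1 and CDH5 had means of at most 3.09 in any group. The part of endothelial content in the PLXND1 level was not tested. PLXNB3, a low-level class B plexin, held 10.4, 22.3 and 22.5 in WT and 66.5, 45.3, 60.5, 44.02 and 41.2 in KO, without overlap (log2 fold 1.48, adjusted p = 0.0072), and this call was lost without WT 1 (adjusted p up to 0.053). It held 58.5, 23.1 and 33.5 in OE without Dox and 24.9, 44.6 and 14.7 in OE with Dox, which overlap.

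The remaining 5 plexins passed neither main test. PLXNB2, the most abundant of them per kilobase in WT, was at 1361 ± 92.7 in WT and 1218 ± 138 in KO, and 1269 ± 121 without and 1303 ± 233 with Dox. PLXNC1, the receptor of SEMA7A, was at 243 ± 25.7, 302 ± 39.4, 321 ± 44.6 and 242 ± 6.10, and PLXNA3 at 526.3 ± 54.7, 622 ± 130.5, 611 ± 64.4 and 596 ± 87.5, in the same order. PLXNA2, a class A receptor of SEMA6A, was at 225 ± 43.3, 253 ± 56.1, 332 ± 131 and 212 ± 61.0. PLXNB1, the receptor of SEMA4D, was at 1386 ± 105, 1458 ± 303, 1531 ± 241 and 1129 ± 195. With the replicate number as a block, PLXNB1 was called lower with Dox (log2 fold -0.44, adjusted p = 0.0081, against 0.08 without the block). Here and below the block is shared by all 14 libraries, so it is not a paired test of the OE libraries alone.

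**Figure D3:**
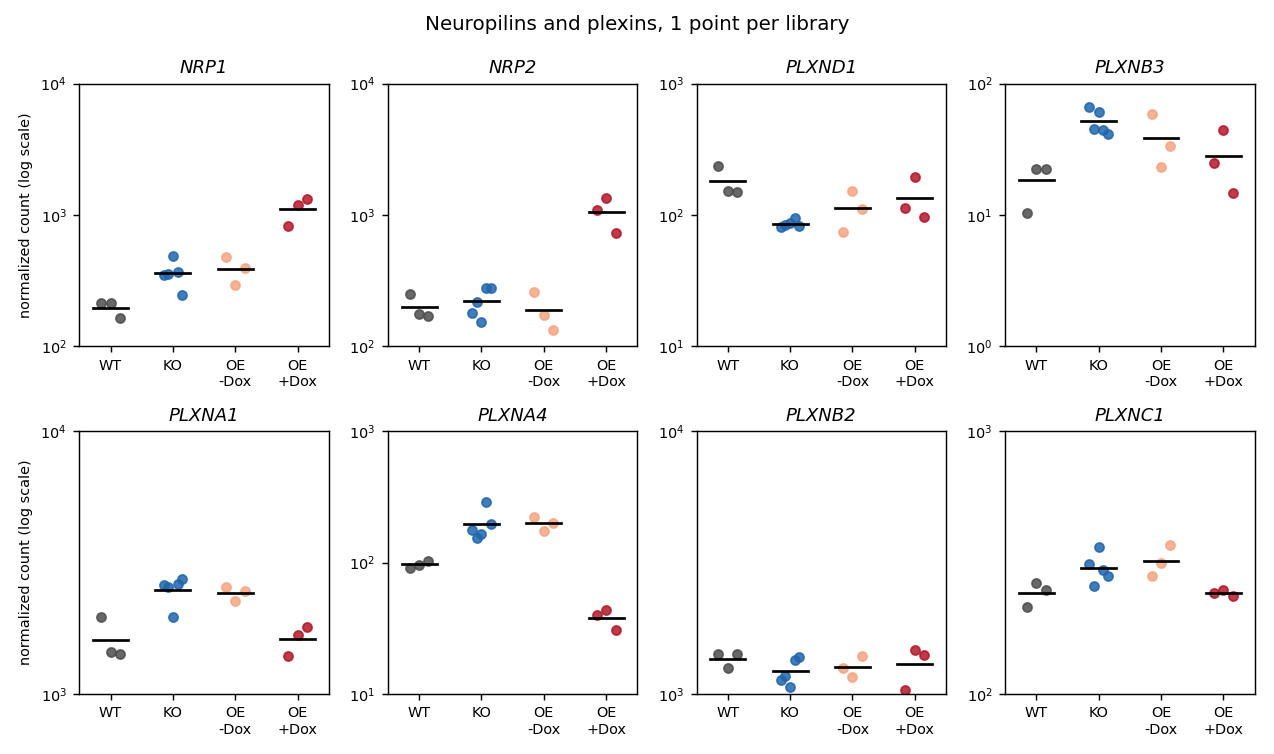
Normalized counts of both neuropilins and 6 plexins on a log scale, with 1 point per library, a line at the group mean, and OE -Dox and OE +Dox for the overexpression line without and with doxycycline. NRP1 and NRP2 rise in OE with Dox, PLXNA4 drops there below all other libraries, and PLXND1 is lower in KO than in WT.

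The 2 membrane-bound class 5 semaphorins changed in both comparisons, and in opposite senses to each other. SEMA5A, which carries thrombospondin repeats (ENSG00000112902, chromosome 5, 9035033 to 9546075, minus strand), held 140.1, 247 and 178 in WT and 564, 537, 1125, 949 and 678 in KO, and 791, 490.4 and 533 without and 1922, 1334 and 1551 with Dox. WT lay below every other library, and OE with Dox above every other library (log2 fold 2.01, SE 0.25, adjusted p = 3.3e-05, KO against WT; log2 fold 1.42, SE 0.28, adjusted p = 0.001, with against without Dox). Its paralog SEMA5B (ENSG00000082684, chromosome 3, 122909082 to 123028605, minus strand) ran the other way, at 708, 1281 and 889 in WT and 329.8, 272, 371, 399.7 and 357 in KO, and 478, 575 and 441 without and 256, 162 and 107 with Dox. WT was highest and OE with Dox lowest, with no overlap between these 2 groups and the rest (log2 fold -1.44, adjusted p = 0.00035, KO against WT; log2 fold -1.59, adjusted p = 0.00018, with against without Dox).

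The class 6 semaphorins bind class A plexins. SEMA6A held 895, 832 and 883 in WT and 476, 552, 314, 474 and 614 in KO, and 698, 657 and 584 without and 333, 469 and 489 with Dox. All libraries outside WT lay below WT, with called falls in KO (log2 fold -0.87, adjusted p = 0.0021) and with Dox (log2 fold -0.60, adjusted p = 0.031), the second lost without OE without Dox 1 or OE without Dox 2 or OE with Dox 1 (adjusted p up to 0.15). SEMA6B, the member with the highest WT level per kilobase, held 978, 795 and 1055 in WT and 624, 551, 265, 408 and 483 in KO, and 407, 502 and 462 without and 417, 447 and 394 with Dox. It fell in KO against WT (log2 fold -1.06, adjusted p = 0.0014), and the other 3 groups overlapped each other. For SEMA6D, at 144 ± 51.1 in WT and 287 ± 82.96 in KO, and 269 ± 65.8 without and 342 ± 54.9 with Dox, KO was called higher than WT (log2 fold 0.98, adjusted p = 0.018). KO and WT overlap there, and the call was lost without WT 1 or WT 3 (adjusted p up to 0.1). SEMA6C, at 324 ± 39.8, 360.0 ± 76.6, 404 ± 71.6 and 310.2 ± 63.6 in the same order, passed neither main test, and with the replicate number as a block it was called lower with Dox (adjusted p = 0.038, against 0.17 without the block).

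Of the 6 class 4 genes, SEMA4A changed in both comparisons. It held 21.8, 27.7 and 32.9 in WT and 67.4, 59.5, 61.4, 47.6 and 39.4 in KO, and 51.2, 37.9 and 52.6 without and 10.2, 17.7 and 8.30 with Dox. KO lay above WT (log2 fold 0.97, adjusted p = 0.016), a call lost without WT 1 (adjusted p up to 0.078), and OE with Dox lay below every other library (log2 fold -1.94, adjusted p = 5.3e-05). Small changes with Dox were called for 3 more genes of the class. SEMA4B fell from 277 ± 24.4 to 196 ± 12.3 (log2 fold -0.49, adjusted p = 0.014), lost without OE without Dox 1 or OE without Dox 3 or OE with Dox 1 (adjusted p up to 0.059). SEMA4D, the ligand of PLXNB1, fell from 365 ± 37.2 to 275 ± 15.8 (log2 fold -0.40, adjusted p = 0.023), lost without OE without Dox 3 or OE with Dox 1 or OE with Dox 3 (adjusted p up to 0.12) and in a fit of both groups alone (0.051). SEMA4F rose from 127 ± 11.3 to 229 ± 64.9 (log2 fold 0.81, adjusted p = 0.016), lost without OE without Dox 1 or OE with Dox 2 or OE with Dox 3 (adjusted p up to 0.089).

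SEMA4B and SEMA4D also lost their calls with Dox when no filter was used (0.06 and 0.12). SEMA4C, at 641 ± 85.02 in WT and 606 ± 34.4 in KO, and 676 ± 112 without and 639 ± 22.9 with Dox, and SEMA4G, at 66.0 ± 8.43, 78.7 ± 3.85, 79.3 ± 7.33 and 118 ± 34.2, passed neither main test. SEMA4G overlaps MRPL43 on the opposite strand, a gene with a mean of 208.0, and SEMA6D overlaps the opposite-strand pseudogene RPL7AP62, with a mean of 150.4, so the reads of both members are uncertain. The same holds, with lower means, for SEMA4B (RPS12P26, same strand, 62.4), PLXNC1 (CEP83, 108.8), PLXNA3 (LAGE3, 74.5) and SEMA6A (RPS14P8, 60.2, and SEMA6A-AS1, 21.1). It also holds for SEMA4D (PA2G4P6, 20.5) and PLXNB3 (SRPK3, same strand, 6.98). SEMA7A, which is held to the membrane by a lipid anchor, stood at 109.8, 60.8 and 71.9 in WT and 116, 139, 74.6, 101 and 104 in KO, and 109, 104 and 86.1 without and 56.3, 80.9 and 42.4 with Dox. OE with Dox lay below OE without Dox with no overlap (log2 fold -0.77, adjusted p = 0.04), and the call was lost without OE without Dox 1 or OE without Dox 2 or OE with Dox 1 or OE with Dox 3 (adjusted p up to 0.19).

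**Figure D4:**
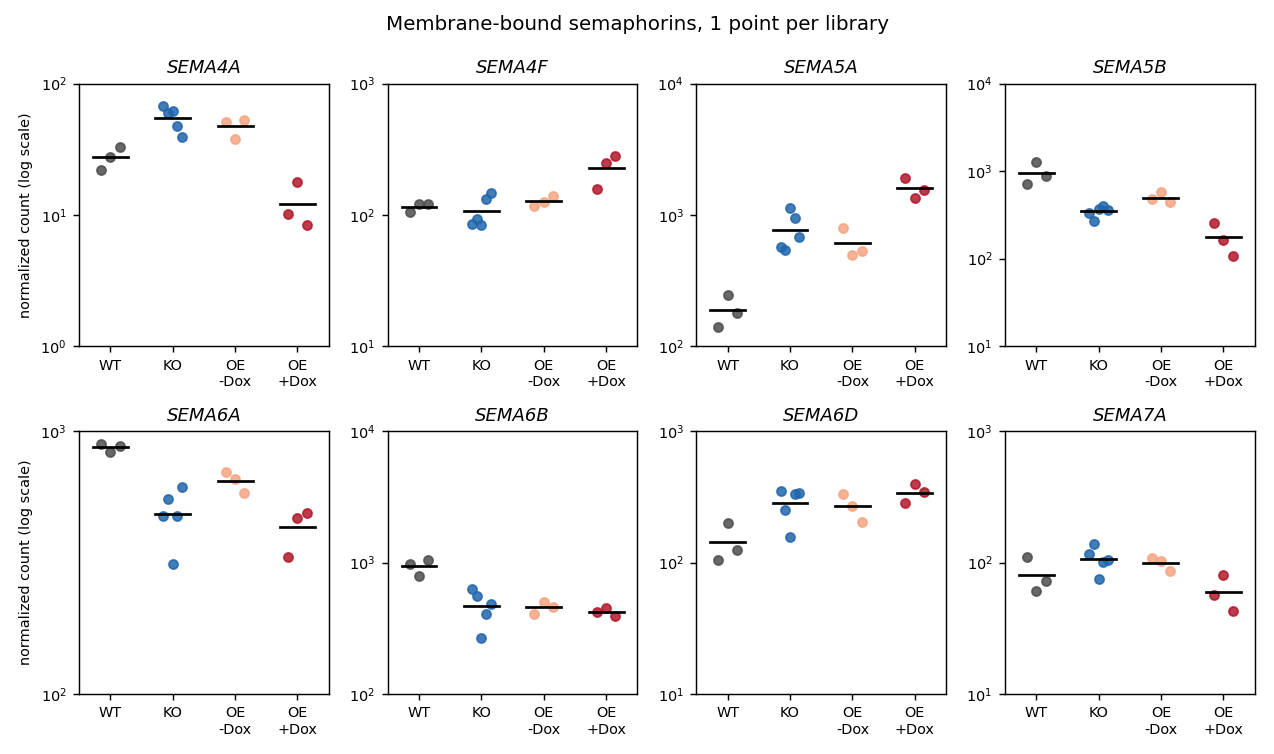
Normalized counts of 8 membrane-bound semaphorins on a log scale, with 1 point per library, a line at the group mean, and OE -Dox and OE +Dox for the overexpression line without and with doxycycline. SEMA5A is lowest in WT and highest in OE with Dox, SEMA5B runs the other way, and SEMA6A and SEMA6B are highest in WT.

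KO against WT and OE with Dox against OE without Dox share no library, so the knockout and overexpression effects were set against each other. Of the 30 tested members 9 were called in both. In 5 of them, SEMA3A, SEMA3E, SEMA4A, PLXNA1 and PLXNA4, the directions were opposite, and in 4, NRP1, SEMA5A, SEMA5B and SEMA6A, they were the same. Over all 17102 genes 1337 were called in both (7.82%), 1115 in opposite (6.52%) and 222 in the same direction (1.30%). A further 5 members were called in KO only and 7 with Dox only. Of all genes 2359 were called in KO and 4393 with Dox, each count including the 1337 called in both. The shares of all genes called in KO only or with Dox only were not computed, so no excess is read from these counts.

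The difference between the 2 effects was tested directly in the same model, as the Dox effect minus the KO effect. It was called for 15 members, 8 positive and 7 negative, or 50% beside 28.8% of all genes (15.1% and 13.6%). With upper-quartile scaling, which moved the median difference of all genes from 0.05 to -0.07, 6 were positive and 8 negative, and SEMA4F and SEMA6B were no longer called. The largest were SEMA3E (log2 fold 8.81, SE 0.60, adjusted p = 6.2e-09), SEMA3D (log2 fold 4.81, SE 0.74, adjusted p = 0.00013), SEMA3C (log2 fold 4.53, SE 0.36, adjusted p = 4.4e-08) and NRP2 (log2 fold 2.35, SE 0.37, adjusted p = 0.00013) on the positive side. On the negative side they were PLXNA4 (log2 fold -3.35, SE 0.29, adjusted p = 8e-08), SEMA4A (log2 fold -2.91, SE 0.39, adjusted p = 1.4e-05) and PLXNB3 (log2 fold -1.96, adjusted p = 0.0091). SEMA3A (log2 fold 1.67, adjusted p = 6.1e-05), PLXND1 (log2 fold 1.28, adjusted p = 0.012), PLXNA1 (log2 fold -1.23, adjusted p = 0.00013) and PLXNC1 (log2 fold -0.71, adjusted p = 0.013) were called too. For NRP1 (log2 fold 0.66, adjusted p = 0.12), SEMA5A (log2 fold -0.59, adjusted p = 0.27), SEMA5B (log2 fold -0.15, adjusted p = 0.8) and SEMA6A (log2 fold 0.27, adjusted p = 0.49), which changed in 1 direction in both, no difference was detected, which does not show that the effects were equal.

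**Figure D5:**
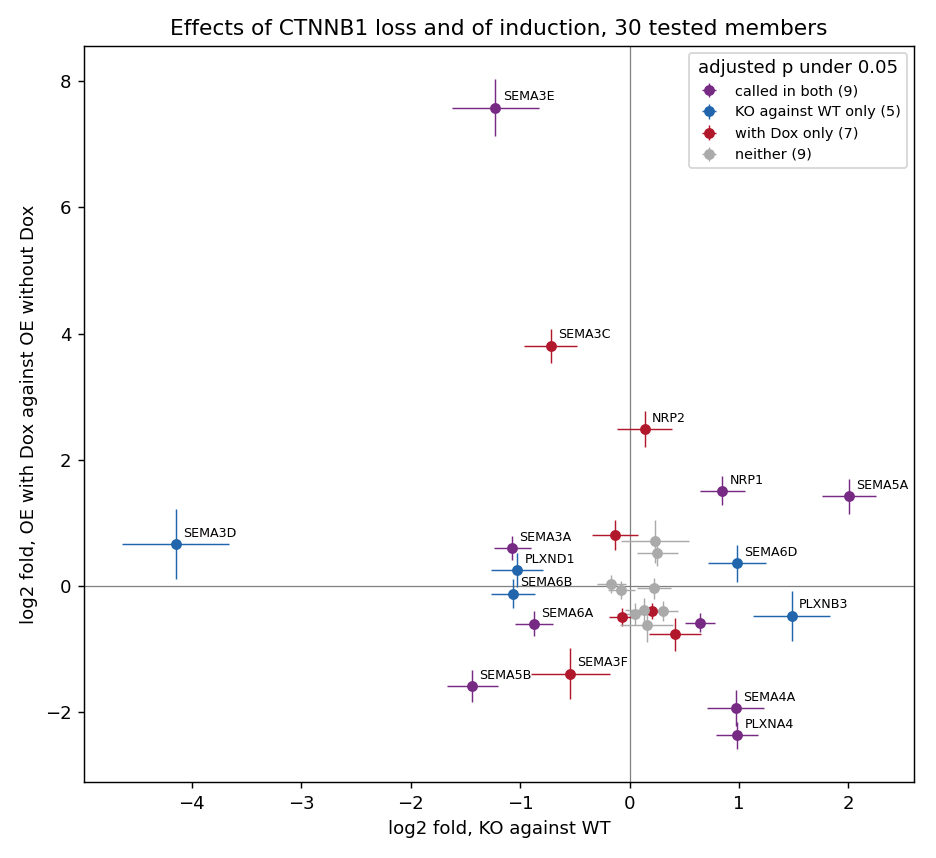
Each point is 1 of 30 tested members, with its log2 fold in KO against WT on the x axis and in OE with Dox against OE without Dox on the y axis, error bars of 1 SE from limma, and colour for the comparisons in which it was called. SEMA3E, SEMA3C and NRP2 stand highest, SEMA3D stands farthest left, and PLXNA4 and SEMA4A lie in the lower right.

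WT and OE without Dox, the 2 control groups, differed in some of these genes. In OE without Dox against WT 4 members were called higher and 2 lower of 30, or 20% beside 5.74% of all genes (3.43% and 2.32%). SEMA5A (log2 fold 1.69, adjusted p = 0.0017), PLXNA4 (log2 fold 1.03, adjusted p = 0.0073), NRP1 (log2 fold 0.97, adjusted p = 0.018) and PLXNA1 (log2 fold 0.61, adjusted p = 0.022) were higher, and SEMA6B (log2 fold -1.04, adjusted p = 0.011) and SEMA5B (log2 fold -0.91, adjusted p = 0.049; 0.094 with the replicate number as a block) were lower. All 6 were also called in the same direction in KO against WT, a comparison that shares the WT libraries. The count fell to 2 without WT 3, to 1 without OE without Dox 1 and to 3 without OE without Dox 3, and SEMA5A was called each time. When KO was set against OE without Dox, these genes differed by -0.53 (SEMA5B) to 0.32 (SEMA5A) on the log2 scale, none of them called (lowest adjusted p = 0.5).

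With WT as the control, OE with Dox had 9 members higher and 7 lower, or 53.3% beside 20.5% of all genes (10.4% and 10.1%). SEMA3E (7.12), SEMA3C (3.23), SEMA5A (3.11), NRP1 (2.47) and NRP2 (2.39) had the largest log2 rises and SEMA5B (-2.50) the largest fall, with adjusted p between 3.3e-09 and 7.2e-06. PLXNA1 stood near its WT level (log2 fold 0.02, adjusted p = 0.94) and so did SEMA3A (log2 fold 0.10, adjusted p = 0.78), whereas PLXNA4 (log2 fold -1.34, adjusted p = 0.00012) was below it.

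Signalling partners were read from a list of 49 co-receptors, effectors and neuropilin ligands, of which 46 were tested. In KO against WT 8 were higher and 8 lower, and with Dox 7 were higher and 13 lower, with median log2 folds of -0.02 and -0.04, beside 13.8% of all genes called in KO and 25.7% with Dox. Of the 9 tested co-receptors 1 was higher and 4 lower in KO, and 5 were higher and 1 lower with Dox. CNTN2, an adhesion molecule of axons, fell in KO from 386 ± 76.2 to 137 ± 27.6 (log2 fold -1.50, adjusted p = 1.1e-05) and rose with Dox from 577 ± 117 to 6316 ± 847 (log2 fold 3.46, adjusted p = 7.7e-10). CHL1, a relative of L1CAM that associates with neuropilins, rose with Dox from 139 ± 28.8 to 5770.0 ± 578 (log2 fold 5.38, adjusted p = 2.1e-11). KDR, the VEGF receptor that pairs with neuropilins, fell in KO from 20.8 ± 6.92 to 1.84 ± 0.0481, which is 10 reads over 5 libraries (log2 fold -2.89, adjusted p = 3.7e-05), and rose with Dox from 14.4 ± 10.9 to 87.0 ± 31.6 (log2 fold 2.68, adjusted p = 0.00011). KDR also stands in the endothelial list given above.

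Of the 33 effectors 7 were higher and 3 lower in KO, and 2 were higher and 12 lower with Dox, where 12.8% of all genes were higher and 12.9% lower (6.64% and 7.15% in KO). CDK5R1, the activator of the kinase CDK5, rose in KO from 287 ± 62.5 to 592 ± 35.7 (log2 fold 1.06, adjusted p = 0.0002), and CRMP1, a cytoskeletal mediator of SEMA3A, from 2054 ± 88.4 to 3268 ± 332 (log2 fold 0.66, adjusted p = 0.00023). With Dox, DPYSL5, of the same family as CRMP1, fell from 3225 ± 233 to 1211 ± 32.3 (log2 fold -1.41, adjusted p = 1.2e-07). These 3 effectors are also expressed in neurons, whose markers summed to the ranges given above, and the part of neuron content in them was not tested. Of the 4 other neuropilin ligands, which are growth factors of the VEGF family, 0 were called higher and 1, PGF, lower in KO (log2 fold -2.27, adjusted p = 0.0022). With Dox limma called 0 of these 4, of which 1, VEGFB, had an unadjusted p under 0.05 (adjusted p = 0.13), and edgeR and DESeq2 called 0 too. PGF and VEGFB were chosen after their values were seen.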

How the data were processed

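RNA was sequenced as 14 libraries, and the authors deposited 1 table of normalized counts, used here as signal per gene. Per the submitters' processing notes, TopHat2 2.1.1, HTSeq 0.9.1, R 3.4.0, DESeq2 and build hg38 were used, with no roles named; annotation release and strand setting are not given in the sources used here. In every library 100% of the deposited values were whole multiples (tolerance 0.01) of 1 step, 0.866 to 0.947, so reads were recovered. GENCODE 44 named 56948 of 58051 gene identifiers.

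limma 3.58.1 was fitted in R 4.3.3 to log2(value + 1) over 17102 genes with a value of at least 10 in at least 3 libraries, as 1 model of 4 groups with a mean-variance trend and robust empirical Bayes, with Benjamini-Hochberg adjustment at 0.05. On simulated counts for KO against WT (16922 genes), 67% of genes changed by 1 on the log2 scale and 100% of those changed by 2 were recovered, and 7.74% of calls were false. The simulation used 1 dispersion, 0.05, for all genes and changed only genes with a mean of at least 50, so these recovery rates do not cover lower genes. On the recovered reads, edgeR 4.0.16 (quasi-likelihood) called 1194 genes up and 1224 down for KO against WT, and 2180 up and 2240 down for Dox, and DESeq2 1.42.0 was an alternative. Other alternatives were pseudocounts of 0.5 and 5, either no filter or one of 50, upper-quartile or TMM scaling, non-robust variances, library weights, a replicate block, only the groups compared, and leaving out each library. Replicates of a group differed by 3.83 to 13.9 times counting error, so none was a copy.

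Same-numbered libraries deviated together (r over all genes tested, 3 pairs each) in OE without and with Dox, from 0.22 to 0.402, and in WT and OE without Dox, from 0.175 to 0.283, so the number was taken to pair these. Members and lists were chosen with earlier results of these data known. Members called in KO against WT or with Dox against without are given in every library, and up to 4 called partners per comparison, by adjusted p, are named, except 1 that is not reported here. Promoters are RefSeq windows, whose letters matched hg38.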

Additional observations from a re-analysis of the deposited data

Results flagged for a closer look

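In groups of 4 to 10 libraries, here only KO, a library was marked where its gap to the nearest other exceeded Dixon's 95% critical share of the range, 0.71 for 5. Over the 31 members and CTNNB1 this marked 2 genes, and chance marks about 1 in 20. PLXNA1 in KO 3 was at 1963, below the other KO libraries at 2559.9 to 2726 (gap over range 0.782). SEMA4G in KO 4 was at 71.9, below the others at 79.6 to 81.2 (0.832).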

How the results depend on the processing

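No called member reversed under the alternatives run. The 14 calls in KO against WT ranged from 11 to 14 when 1 library was left out, and 9 were made under every setting. The 16 calls with Dox against without ranged from 11 to 14, and 9 were made under every setting. The 6 calls in OE without Dox against WT ranged from 1 to 6, being 2 without WT 3, 1 without OE without Dox 1 and 3 without OE without Dox 3. The 1 call in KO against OE without Dox ranged from 0 to 1, and was 0 with no filter (limma, more genes tested). OE with Dox against WT ranged from 14 to 16, where SEMA3B, SEMA3F, SEMA4B and SEMA4G were lost under at least 1 setting, and the difference of effects from 13 to 17. With the replicate number as a block, the paired comparisons had 18 calls with Dox against without and 5 in OE without Dox against WT. The number was not taken to pair other groups, although the block fits the same replicate effect to all 14 libraries. Correlations ran from -0.289 to 0.237 for WT with KO (own number best in 2 of 6 libraries). They ran from 0.0369 to 0.25 for WT with OE with Dox (4 of 6) and 0.0494 to 0.221 for KO with OE without Dox (3 of 6). KO 4 and KO 5 have numbers found in no other group, so under the block they add nothing to comparisons with KO. The block gave 13 calls in KO against WT (SEMA6D lost, adjusted p = 0.071). For the difference, which includes the paired OE groups, it gave 14 (SEMA6B lost, 0.063). It gave 16 in OE with Dox against WT and 1 in KO against OE without Dox. Beside these and the calls given above with the block, it changed no other call of a member. Upper-quartile scaling also called PLXNB1 and PLXNC1 lower with Dox. The causes were not tested. Depth limits SEMA3E and SEMA3G, which had between 1 and 14 reads in most libraries outside OE with Dox.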

Other observations

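SEMA3C, SEMA3E, SEMA3A and SEMA3D lie on the minus strand of chromosome 7 within 4.44 Mb. Of the 6 other protein-coding genes in that span and 1 Mb to each side, a set chosen after values were seen, 4 passed the filter. With Dox against without, CACNA2D1, a calcium channel subunit (log2 fold 1.26, adjusted p = 0.0032), and GNAI1, a G protein subunit (0.82, 0.00036), were higher, while HGF, a growth factor (1.25, 0.28), and PCLO, a presynaptic protein (-0.30, 0.28), did not pass the test. In KO against WT PCLO was higher (0.74, 0.0057), and CACNA2D1 (-0.39, 0.39), GNAI1 (-0.11, 0.68) and HGF (-1.31, 0.28) did not pass.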
